A study of Mus musculus with 16 samples.

Results

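HECT ubiquitin ligases were described by RNA sequencing of CA1, the output subfield of the hippocampus proper, in 8 Fmr1-KO mice and 8 WT mice. The genes were Arel1, Huwe1, Herc1, Herc2, Herc3, Nedd4, Nedd4l, Itch, Ube3a and Ube3b, which are 10 of the 46403 gene symbols in the deposited tables and were found there by symbol. The family was chosen by the genotype difference of Arel1, which had the smallest p among the genes with a higher level in Fmr1-KO, so everything about Arel1 that involves the genotypes is a description and supports nothing. The Fmr1-KO mice lack functional Fmr1, the gene of the RNA-binding protein FMRP, whose loss underlies fragile X syndrome, and the WT mice are given as C57BL/6. Mice of both genotypes had served as yoked controls, animals handled like the trained ones without the avoidance contingency, for an active place avoidance task. Ages and sexes were not used here, and nothing in the labels tells whether mice of the 2 genotypes shared litters. Each library carries an animal label of its own, a number with a letter, so p-values measure the spread between these samples. Some of the numbers occur with both letters, B and D, within a genotype. What a shared number stands for is not given in the labels, and the fits treat every library as separate.

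HECT ligases attach ubiquitin, a small protein tag, to other proteins. Unlike RING ligases, they first take ubiquitin from an E2 enzyme onto a cysteine of their own catalytic domain and then pass it to the substrate. The Nedd4 branch (Nedd4, Nedd4l and Itch) carries a lipid-binding C2 domain and WW domains that read short proline motifs, and the Herc proteins carry repeats related to RCC1, the exchange factor of Ran. In neurons the family is best known through Ube3a, which is expressed mainly from the maternal allele and whose loss causes Angelman syndrome. In bulk tissue such as this, fewer cells of a type and less RNA per cell cannot be told apart.

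Fmr1-KO libraries held 1480966 to 2979481 estimated counts and WT libraries 515103 to 3275003, with WT replicates 3 and 6 the shallowest at 878484 and 515103. Protein-coding transcripts took 80.67% and 58.38% of the counts of these 2 libraries. Fmr1 averaged 22.2 ± 7.08 CPM in Fmr1-KO, against 58.1 ± 19.4 CPM in WT (SD, n = 8 each), and every Fmr1-KO library lay below every WT library. CPM are counts scaled to a common library size, here with TMM normalization. The 6 markers listed for CA1 pyramidal neurons summed to 2692.0 to 2831.3 CPM in Fmr1-KO and 2440.9 to 3000.4 CPM in WT, and none of them was at 0 in any library. Counts behind the 10 ligases were lowest in WT replicate 6 for 9 genes, down to 18 for Ube3b, which corresponds to 54.2 CPM with an exact Poisson 95% interval of 32.1 to 85.6 CPM that covers counting error only.

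Arel1 encodes a ligase that ubiquitinates mitochondrial antagonists of the inhibitors of apoptosis and so opposes cell death (ENSMUSG00000042350, chr12:84918148-84970900, minus strand, GRCm38 as are all positions). Its level in Fmr1-KO libraries was 353.1 CPM at the lowest, 391.9 CPM at the median and 440.3 CPM at the highest, against 251.4, 314.8 and 327.8 CPM in WT libraries. The groups did not overlap, and the gap between the lowest Fmr1-KO library (replicate 5) and the highest WT library (replicate 3) was narrow beside the range within either genotype. The mean was 392.2 ± 30.7 CPM in Fmr1-KO, against 301.5 ± 28.3 CPM in WT (SD, n = 8 each), a log2 fold change of 0.38 (SE 0.08). Of 11515 genes tested, 1 had every Fmr1-KO library above every WT library (0.00868%), and that gene was Arel1, while 4 genes (0.0347%) had every Fmr1-KO library below. These are the values that chose the family. By edgeR's quasi-likelihood test the Benjamini-Hochberg adjusted p was 0.234, so Arel1 ranked at 1 by p among the 5538 genes with a positive log2 fold change without passing the threshold of 0.05. The change was also not among the steepest, since 583 genes (5.06%) had a larger log2 fold change. By the letter in the animal labels, Arel1 averaged 405.8 ± 37.1 CPM in Fmr1-KO mice labelled B and 298.8 ± 33.5 CPM in WT mice labelled B. For those labelled D the means were 378.5 ± 17.7 CPM in Fmr1-KO, against 304.2 ± 26.9 CPM in WT (SD, n = 4 each). Without WT replicates 3 and 6 the log2 fold change of Arel1 was 0.40. Other tools did call Arel1. It passed with the DESeq2 Wald test, which called 0.0695% of all 11515 genes and 0.0521% as higher in Fmr1-KO. That test left 9599 genes without an adjusted p, so its share among the genes it could call was larger. Arel1 also passed with DESeq2 without its independent filtering (0.0521%, and 0.00868% as higher) and with limma-voom with quality weights (0.0608%, and 0.0174% as higher).

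**Figure D1:**
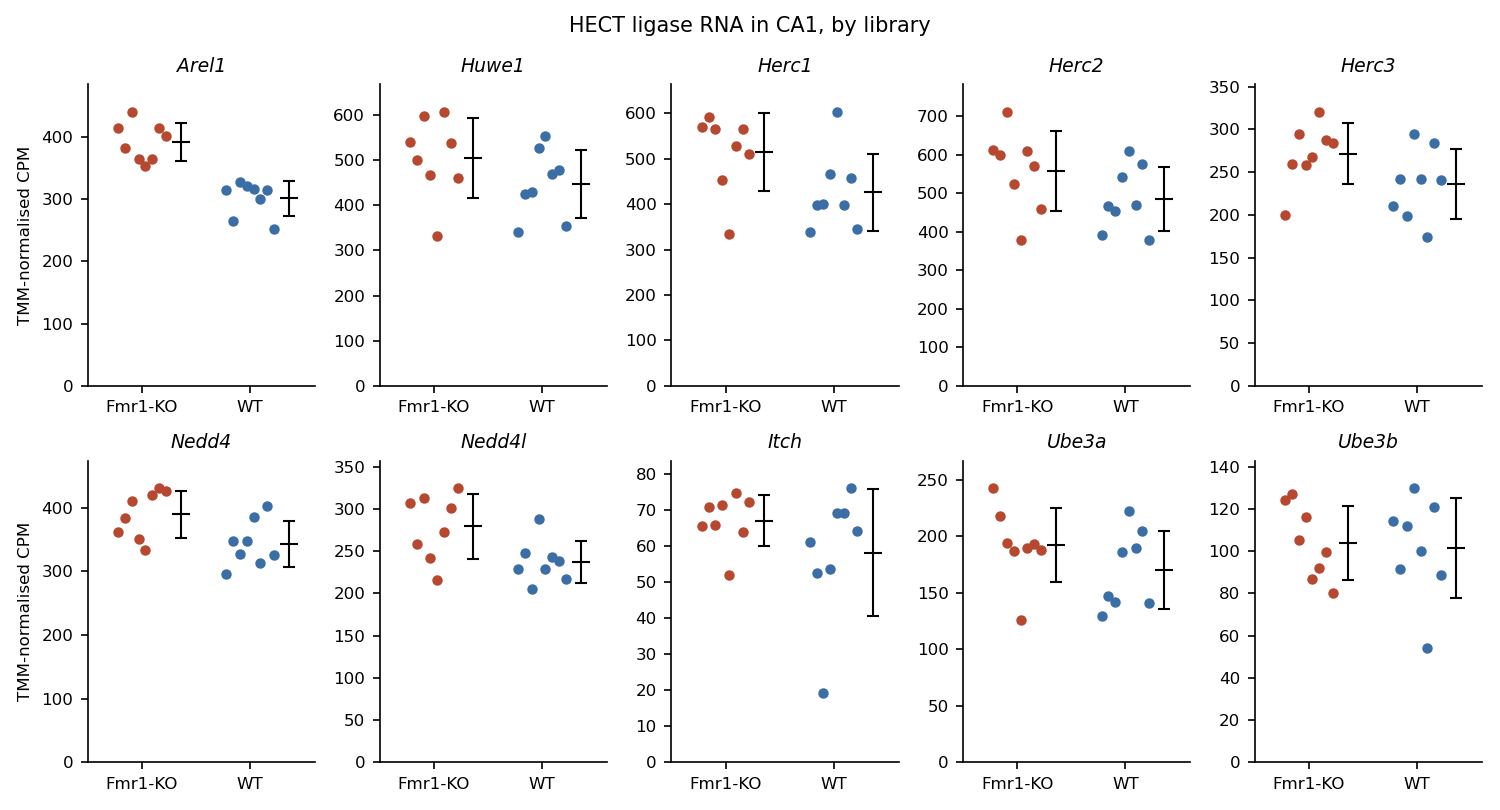
Level of each of the 10 HECT ligases in every library, in TMM-normalised CPM, with Fmr1-KO on the left and WT on the right of each panel; points are libraries in replicate order and bars are mean ± SD (n = 8 each). The Arel1 libraries do not overlap between genotypes (353.1 to 440.3 CPM in Fmr1-KO, 251.4 to 327.8 CPM in WT), while those of the other 9 genes do.

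None of the other 9 ligases passed the threshold in the same test, which called 2 of 11515 genes (0.0174%) in either direction, and 0 in the direction of higher in Fmr1-KO. Their log2 fold changes lay between 0.01 and 0.27 with a median of 0.19, against a median of -0.01 over all genes. All 9 were above 0, as were 48.1% of all genes, but the sign of Ube3b turned in 11 of 28 alternative settings. By unadjusted p below 0.05, 3 of the 9 were higher in Fmr1-KO (Herc1, Nedd4 and Nedd4l), beside 3.61% of all genes. These 9 genes share libraries and, as described further on, part of their variation, so they are not 9 separate observations.

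Among the giant Herc proteins, Herc1 (ENSMUSG00000038664, chr9:66350450-66508775), which is linked to membrane traffic and growth signalling, ranged from 333.3 to 590.8 CPM with a median of 546.4 CPM in Fmr1-KO. In WT it ranged from 339.0 to 602.6 CPM with a median of 399.3 CPM. Fmr1-KO replicate 5 was as low as the lowest WT libraries and WT replicate 5 was the highest of all, so the genotypes overlapped over their whole range. Its log2 fold change of 0.27 (SE 0.12) had an edgeR adjusted p of 0.624. Herc2 (ENSMUSG00000030451, chr7:56050196-56231800), a ligase of the DNA damage response that also binds Ube3a, averaged 558.6 ± 103.4 CPM in Fmr1-KO, against 485.8 ± 83.4 CPM in WT (SD, n = 8 each), a log2 fold change of 0.20 with SE 0.12 (edgeR adjusted p = 0.69). Its Fmr1-KO values ran from 377.9 to 711.8 CPM and its WT values from 378.1 to 609.0 CPM. Herc3 (ENSMUSG00000029804, chr6:58831465-58920398), a smaller member of the family, averaged 271.5 ± 35.4 CPM in Fmr1-KO, against 235.9 ± 40.9 CPM in WT (SD, n = 8 each), a log2 fold change of 0.19 (SE 0.11). Its adjusted p in edgeR was 0.67. The lowest Herc3 value belonged to shallow WT replicate 6 at 174.5 CPM, and without WT replicates 3 and 6 the log2 fold change was 0.11.

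In the Nedd4 branch, Nedd4 (ENSMUSG00000032216, chr9:72662346-72749852), a ligase that controls surface receptors and channels and takes part in neurite growth, ranged from 333.0 to 430.1 CPM with a median of 397.0 CPM in Fmr1-KO. In WT it ranged from 296.0 to 403.2 CPM with a median of 337.3 CPM. In 4 of 8 Fmr1-KO libraries Nedd4 lay above the highest WT library. Its log2 fold change was 0.18 (SE 0.08, adjusted p = 0.628 in edgeR). Nedd4l (ENSMUSG00000024589, chromosome 18), known for removing epithelial sodium channels and other ion channels from the membrane, ranged from 215.5 to 324.3 CPM with a median of 287.2 CPM in Fmr1-KO, against 205.3 to 288.6 CPM with a median of 233.7 CPM in WT. It too was above the highest WT library in 4 of 8 Fmr1-KO libraries, with a log2 fold change of 0.24 (SE 0.09) and an adjusted p of 0.59 in edgeR. Itch (ENSMUSG00000027598, chr2:155133509-155226855), which acts in immune tolerance and on Jun proteins, was the least abundant of the 3 at 67.1 ± 7.16 CPM in Fmr1-KO, against 58.2 ± 17.6 CPM in WT (SD, n = 8 each). WT replicate 3 stood apart for Itch at 19.2 CPM, from 16 counts. With it the log2 fold change was 0.20 (SE 0.17, adjusted p = 0.794 in edgeR), and without it 0.09.

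Huwe1 (ENSMUSG00000025261, chrX:151800807-151935417), a very large ligase on chromosome X whose substrates include Mcl1, Mycn and p53, averaged 505.8 ± 88.4 CPM in Fmr1-KO, against 447.4 ± 75.2 CPM in WT (SD, n = 8 each). Its log2 fold change was 0.18 (SE 0.12, adjusted p = 0.726 in edgeR), and the range in Fmr1-KO (332.2 to 607.0 CPM) enclosed that in WT (341.4 to 553.3 CPM). Ube3a (ENSMUSG00000025326, chr7:59228750-59311536) averaged 192.3 ± 33.0 CPM in Fmr1-KO, against 170.4 ± 34.7 CPM in WT (SD, n = 8 each), a log2 fold change of 0.18 with SE 0.13 (edgeR adjusted p = 0.757). The Ube3a locus is overlapped by the antisense end of Snhg14, the long transcript that silences the paternal allele in neurons. Whether counting used strand is not given in the sources used here, so reads of Ube3a and its antisense partner cannot be told apart. Ube3b (ENSMUSG00000029577, chr5:114380607-114421169), a ligase that acts at mitochondria and on the kinase Bckdk, differed least, at 103.9 ± 17.4 CPM in Fmr1-KO, against 101.3 ± 23.8 CPM in WT (SD, n = 8 each), with a log2 fold change of 0.01 with SE 0.14 (edgeR adjusted p = 0.994).

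**Figure D2:**
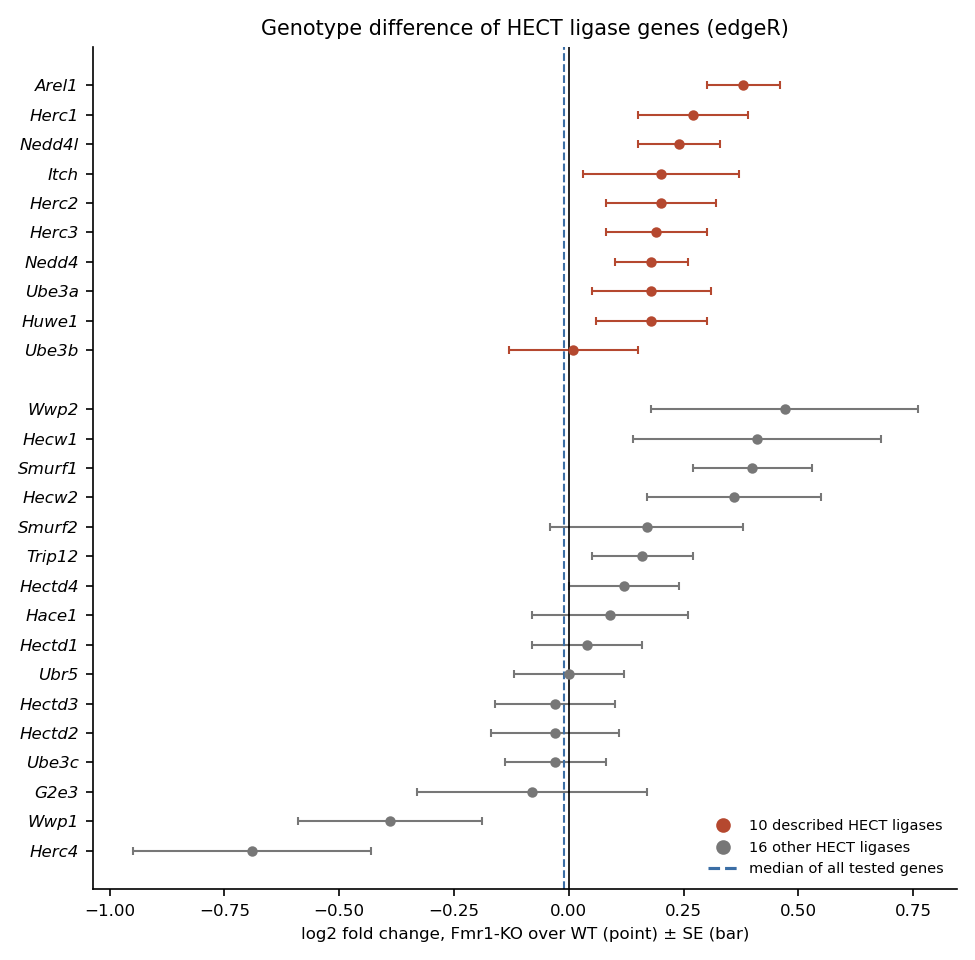
Log2 fold change of Fmr1-KO over WT (points) with its standard error (bars) for the 10 HECT ligases at the top and 16 other tested HECT ligases below; the dashed line is the median of all tested genes, at -0.01. Of the 10, Arel1 lies farthest to the right at 0.38 and Ube3b lies at 0.01, while the other genes run from -0.69 for Herc4 (-0.35 without WT replicate 3) to 0.47 for Wwp2.

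Outside the 10, 17 further HECT ligases are in the files and 16 were tested. None passed the threshold in edgeR with Benjamini-Hochberg adjustment, 9 had a positive and 7 a negative log2 fold change, and their median was 0.07. By unadjusted p below 0.05 there were 2, beside 7.89% of all genes. Smurf1, a ligase of BMP signalling and of RhoA, averaged 120.5 ± 16.3 CPM in Fmr1-KO, against 91.2 ± 19.1 CPM in WT (SD, n = 8 each), a log2 fold change of 0.40 with SE 0.13 (edgeR adjusted p = 0.515). Herc4 had the opposite sign at 22.7 ± 4.91 CPM in Fmr1-KO, against 38.2 ± 24.6 CPM in WT (SD, n = 8 each), a log2 fold change of -0.69 with SE 0.26 (edgeR adjusted p = 0.585). WT replicate 3 alone reached 97.3 CPM, and without it Herc4 averaged 29.7 ± 6.33 CPM in WT (SD, n = 7) and the log2 fold change was -0.35 (SE 0.18). The pair with the highest mean TPM of these 16 were Hectd4, listed in the files under the older name Gm15800, with a log2 fold change of 0.12 (SE 0.12), and Trip12, a ligase of chromatin and DNA repair proteins, with 0.16 (SE 0.11). A positive sign was thus not shared by the whole family, and whether the 10 differ from the other 16 was not tested.

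TPM divides counts by transcript length and therefore allows levels to be set beside each other between genes. Because 1 transcript alone took 30528.9 to 188231.0 TPM in Fmr1-KO libraries and 41886.7 to 486397.0 TPM in WT libraries, which pushes down every other TPM of the same library, levels are given as each gene's share of the summed TPM of the 10 genes. By this share Herc3 was the highest, at 22.9% ± 3.94 in Fmr1-KO and 22.9% ± 5.6 in WT (SD, n = 8 each). It lay above the gene after it in 14 of 16 libraries. Short transcripts add more TPM per count, and Herc3-004 (676 bases) and Herc3-005 (446 bases) held 5.79% and 1.58% of the counts of Herc3. In Fmr1-KO, Herc3 had 271.5 CPM at a weighted length of 4297 bases, against 389.4 CPM at 5390 bases for Nedd4. The first place of Herc3 thus depends on how reads were assigned to its short transcripts, whose part was not tested. Nedd4 followed with 13.7% ± 1.29 in Fmr1-KO and 14.9% ± 2.4 in WT, and Arel1 with 14.8% ± 2.86 in Fmr1-KO and 13.1% ± 1.41 in WT (SD, n = 8 each). Nedd4 was above Arel1 in 8 of 16 libraries, so this pair had no order beyond its spread. Huwe1 (11.3% ± 3.97 in Fmr1-KO, 11.2% ± 2.74 in WT) and Ube3a (10.1% ± 3.04 in Fmr1-KO, 10.3% ± 2.43 in WT) were likewise not separated, with Huwe1 above in 9 of 16 libraries. Herc1 came after them with 7.93% ± 1.06 in Fmr1-KO and 7.08% ± 0.957 in WT. Herc2 (6.15% ± 0.793 in Fmr1-KO, 6.44% ± 0.628 in WT) and Nedd4l (5.84% ± 0.548 in Fmr1-KO, 6.04% ± 0.804 in WT) again overlapped. Ube3b had 4.64% ± 1.39 in Fmr1-KO and 5.36% ± 1.34 in WT, which was above Itch in 16 of 16 libraries. Itch was the lowest with 2.65% ± 0.413 in Fmr1-KO and 2.65% ± 0.813 in WT (SD, n = 8 each). By CPM, which is not divided by length, the 3 highest in either genotype were Herc2, Herc1 and Huwe1, whose transcripts are the longest, at 15304, 14393 and 13836 bases weighted by estimated counts.

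Across libraries, Huwe1, Herc1, Herc2 and Ube3a varied together. Over the 16 libraries the 6 pairs among them had Pearson correlations of log2 CPM of 0.84 to 0.94, and of 0.82 to 0.94 for deviations from the genotype means. The 9 pairs with Arel1 had 0.18 to 0.69, and -0.19 to 0.55 for the deviations. All 4 genes were lowest in Fmr1-KO replicate 5 and in WT replicates 1 and 8, where their mean deviation from the 16-library mean was -0.48, -0.44 and -0.40 on the log2 scale. These libraries were not shallow, with 2678926, 2843621 and 2761371 counts. Arel1 in Fmr1-KO replicate 5 was 0.04 above its 16-library mean on the same scale, and it was -0.12 and -0.45 from it in WT replicates 1 and 8. The libraries share depth and composition, so these correlations are descriptions.

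The promoters of the genes that varied together are shown as the 250 bases before the annotated start, with the window of Arel1 beside them for comparison. Sequences are those of RefSeq on GRCm38.p6, where 8 of the 10 genes matched an entry, with 10 windows in all. Herc2 has a pair of entries and the upstream start is shown. The windows of Huwe1 and Arel1 lie inside the spans that GENCODE gives these genes, with RefSeq starts 2475 and 23977 bases downstream of the GENCODE starts. Capitals mark the GC box GGGCGG, searched on both strands.
Huwe1, chrX:151803032-151803281, plus strand: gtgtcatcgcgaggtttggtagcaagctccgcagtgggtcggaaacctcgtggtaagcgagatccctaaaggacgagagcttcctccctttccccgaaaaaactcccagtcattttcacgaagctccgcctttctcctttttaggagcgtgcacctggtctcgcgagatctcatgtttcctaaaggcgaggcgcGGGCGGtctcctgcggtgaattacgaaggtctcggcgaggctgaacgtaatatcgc
Herc1, chr9:66350200-66350449, plus strand: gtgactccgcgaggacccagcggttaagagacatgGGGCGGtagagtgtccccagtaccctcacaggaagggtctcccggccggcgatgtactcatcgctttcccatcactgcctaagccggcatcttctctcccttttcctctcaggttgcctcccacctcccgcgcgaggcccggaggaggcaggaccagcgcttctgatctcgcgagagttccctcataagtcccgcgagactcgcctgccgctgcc
Herc2, chr7:56049905-56050154, plus strand: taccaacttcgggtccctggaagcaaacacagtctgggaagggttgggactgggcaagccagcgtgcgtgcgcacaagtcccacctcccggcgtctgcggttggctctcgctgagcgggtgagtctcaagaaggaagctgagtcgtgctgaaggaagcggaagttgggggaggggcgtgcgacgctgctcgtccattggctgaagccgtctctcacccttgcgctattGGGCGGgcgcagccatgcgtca
Ube3a, chr7:59228500-59228749, plus strand: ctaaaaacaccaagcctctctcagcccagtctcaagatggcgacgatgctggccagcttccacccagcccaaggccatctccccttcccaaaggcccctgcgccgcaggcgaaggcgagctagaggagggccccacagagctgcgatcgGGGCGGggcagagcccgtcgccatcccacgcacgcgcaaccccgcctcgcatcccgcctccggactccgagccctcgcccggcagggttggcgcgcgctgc
Arel1, chr12:84946924-84947173, minus strand: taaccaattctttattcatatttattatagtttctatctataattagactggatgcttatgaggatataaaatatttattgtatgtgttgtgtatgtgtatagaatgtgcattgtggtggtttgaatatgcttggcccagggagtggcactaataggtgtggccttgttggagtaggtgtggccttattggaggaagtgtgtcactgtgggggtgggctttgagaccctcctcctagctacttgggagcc
The GC box was in the window of 4 of 4 genes that varied together and in 7 of the 10 windows of the family, and it is present in 32.7% of 32851 RefSeq windows of this length. The window of Arel1 held none, nor did it hold the E-box CACGTG (6.02% of all windows), the cyclic AMP response element TGACGTCA (1.55%) or the ETS core CCGGAAG (6.91%). The other windows without a GC box were those of Herc3 and of the downstream start of Nedd4. They too lie inside the GENCODE spans, with RefSeq starts 2235 and 30952 bases downstream of the GENCODE starts. Whether transcripts of Arel1 start at the window shown was not tested. G and C made up 55.6% of the window of Huwe1, 63.6% of Herc1, 63.2% of Herc2, 70.0% of Ube3a and 41.2% of Arel1, against a median of 52.4% over all windows. Such matches are descriptions of the letters and say nothing about binding.

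**Figure D3:**
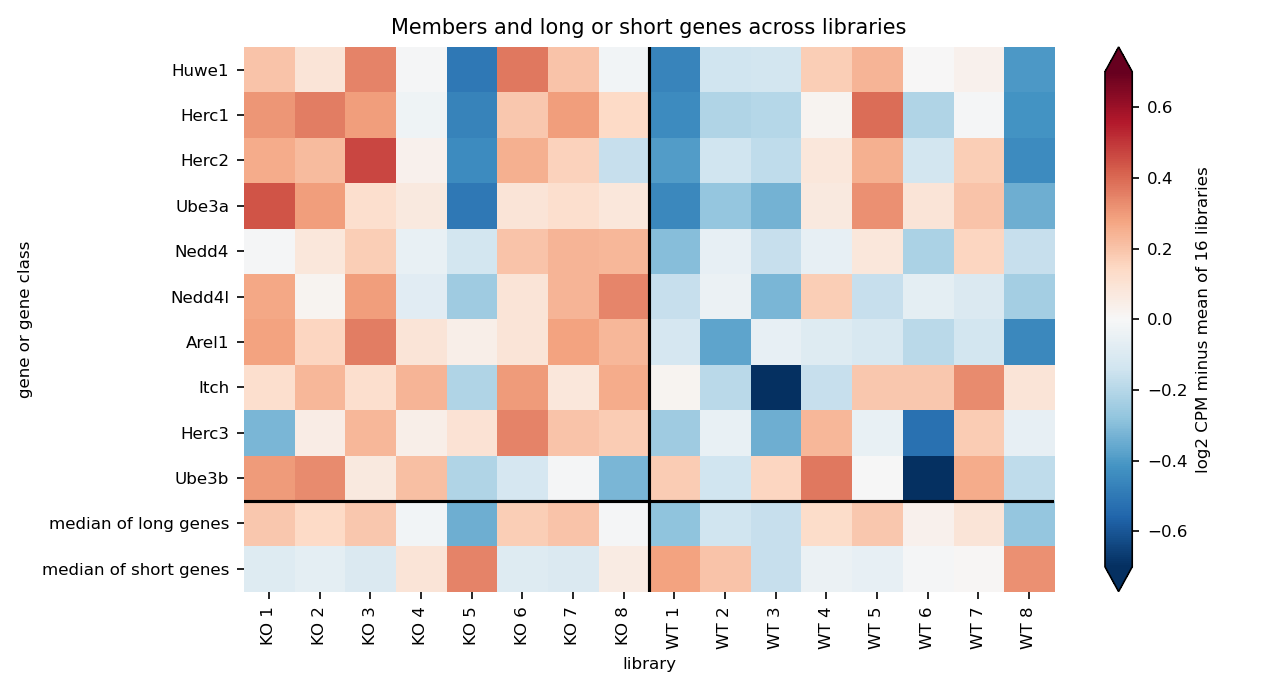
Deviation of log2 CPM from the mean of the 16 libraries for each of the 10 ligases (rows above the line) and the median deviation of genes with long (over 8000 bases) and short (under 2000 bases) transcripts (rows below it); Fmr1-KO libraries are left of the vertical line and WT libraries right of it. Huwe1, Herc1, Herc2 and Ube3a are low in KO 5, WT 1 and WT 8, the libraries in which the median of the long genes is -0.34, -0.28 and -0.27 and that of the short genes is 0.35, 0.28 and 0.32.

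The same libraries were low for long transcripts in general. The median deviation of the 480 tested genes with transcripts over 8000 bases, leaving out the ligases themselves, was -0.34 in Fmr1-KO replicate 5 and -0.28 and -0.27 in WT replicates 1 and 8. In these libraries the median of 3003 genes with transcripts under 2000 bases was 0.35, 0.28 and 0.32. Over the 16 libraries, the correlation with the median of the long genes was 0.97 for Huwe1, 0.94 for Herc2 and 0.93 each for Herc1 and Ube3a. It was 0.72 for Nedd4, 0.68 for Nedd4l, 0.55 for Arel1, 0.39 for Itch, 0.32 for Herc3 and 0.23 for Ube3b. The genotype difference also varied with transcript length. The median log2 fold change over all tested genes was -0.10 for transcripts under 2000 bases, -0.01 for 2000 to 4000 bases, 0.04 for 4000 to 8000 bases and 0.10 above 8000 bases. A positive log2 fold change was found for 33.7%, 48.8%, 58.1% and 67.1% of the genes in these classes. Of the 10 ligases, 6 were in the class of 4000 to 8000 bases and 4 in the longest. With the median deviation of the long genes as a covariate, an alternative chosen after the data were seen, the log2 fold change was 0.02 for Huwe1, 0.11 for Herc1, 0.04 for Herc2 and 0.02 for Ube3a. In that fit it was 0.12 for Nedd4, 0.16 for Nedd4l, 0.16 for Herc3, 0.12 for Itch and 0.34 for Arel1.

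**Figure D4:**
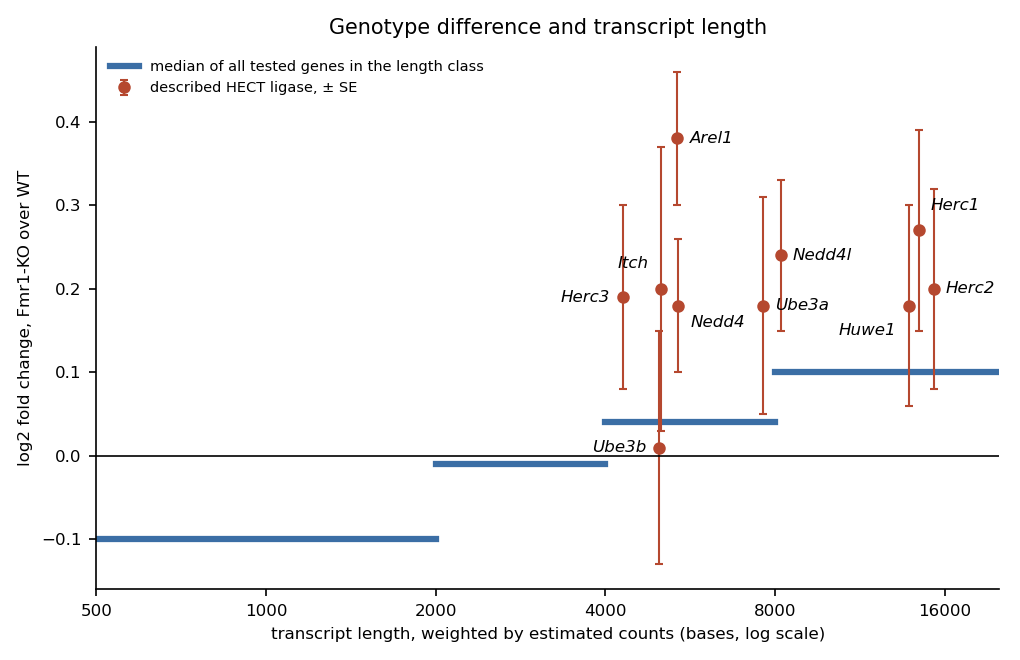
Log2 fold change of Fmr1-KO over WT (± SE) of the 10 ligases against transcript length weighted by estimated counts (log axis), with the median of all tested genes in each of 4 length classes as horizontal bars. The class medians run from -0.10 under 2000 bases to 0.10 over 8000 bases, and 9 of the 10 ligases lie above the median of their class, Ube3b being the exception. These 9 include Arel1, whose value chose the family, and they are not separate observations. By definition, as many genes of a class lie above its median as below it.

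Markers of other cell types had negative log2 fold changes that rested in part on WT replicate 3. All 32 tested markers of oligodendrocytes, astrocytes, microglia, and endothelium and pericytes had a negative log2 fold change, with a median of -0.41, and 6 of them had an unadjusted p below 0.05 in that direction, beside 4.28% of all genes. None passed the adjusted threshold in edgeR. Without WT replicate 3 the median was -0.26, 30 of the 32 were negative and 2 had an unadjusted p below 0.05, and the median of the astrocyte markers was -0.08, against -0.35 with it. Oligodendrocyte markers summed to 235.3 to 466.6 CPM in Fmr1-KO libraries and 258.8 to 700.2 CPM in WT libraries, with Mog at 0 in at least 1 library. Astrocyte markers summed to 1586.5 to 2530.5 CPM in Fmr1-KO and 1778.2 to 5374.2 CPM in WT, or 1817.3 to 2439.6 CPM in WT without replicates 3 and 6, and their median over libraries was higher in Fmr1-KO, at 2228.7 CPM, against 1961.4 CPM in WT. Microglial markers summed to 154.4 to 274.3 CPM in Fmr1-KO and 196.6 to 500.7 CPM in WT (to 271.5 CPM without replicates 3 and 6), and endothelial and pericyte markers to 74.0 to 160.9 CPM in Fmr1-KO and 103.2 to 438.2 CPM in WT (to 194.7 CPM without them). CA3 markers summed to 35.7 to 78.4 CPM in Fmr1-KO and 54.7 to 180.5 CPM in WT (to 91.6 CPM without replicates 3 and 6). Dentate markers summed to 135.1 to 233.1 CPM in Fmr1-KO, against 135.7 to 223.8 CPM in WT, and most of this was Lct. Lct averaged 162.4 CPM in Fmr1-KO, against 157.3 CPM in WT, while Prox1 averaged 5.88 CPM, against 8.08 CPM. The 5 dentate markers other than Lct were each at 0 in at least 1 library, so the sum mainly describes a single gene. Interneuron markers summed to 362.4 to 775.8 CPM in Fmr1-KO and 505.0 to 754.2 CPM in WT. The part of these cell types and of transcript length in the values of the ligases was not tested, apart from the covariate fit above.

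By transcript, the 10 genes have 92 entries, of which 30 passed the filter on low counts. Of the 28 that belong to genes other than Arel1, 0 passed the threshold in edgeR with Benjamini-Hochberg adjustment (1 of 16772 transcripts did, 0.00596%), with 18 positive and 10 negative log2 fold changes. By unadjusted p below 0.05 there were 2, beside 3.91% of all transcripts. These were Nedd4-001, which carries 96.8% of the counts of Nedd4 (log2 fold change 0.18, SE 0.09), and Herc1-007, a short coding transcript with 1.6% of those of Herc1. Herc1-007 ranged from 0.0 to 23.5 CPM in Fmr1-KO libraries, against 0.0 to 7.12 CPM in WT libraries, and its log2 fold change was 2.08 (SE 0.75). Its adjusted p in edgeR was 1.0. The main transcript Herc1-001, with 93.7% of the counts, had a log2 fold change of 0.26 (SE 0.13).

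Arel1 was carried mainly by the coding transcript Arel1-001, at 373.5 ± 41.6 CPM in Fmr1-KO, against 292.6 ± 37.9 CPM in WT (SD, n = 8 each). It held 90.4% ± 7.1 of the gene's counts in Fmr1-KO and 93.1% ± 11.3 in WT. Arel1-002, annotated as a target of nonsense-mediated decay, held 8.25% ± 7.64 in Fmr1-KO and 5.92% ± 11.6 in WT (SD, n = 8 each), and fell below 1 count in 1 Fmr1-KO library and 4 WT libraries. The share of Arel1-001 was lowest in WT replicate 3 at 66.1% and in Fmr1-KO replicate 2 at 74.6%.

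For several other ligases the deposited counts were divided between near-complete coding transcripts in a way that changed from library to library. Herc2-201 and Herc2-202 are 15342 and 15261 bases long, and Herc2-201 took practically all counts of the gene in Fmr1-KO replicates 1 and 8 and 3.47e-05% of them in Fmr1-KO replicate 2. In WT libraries it took from 10.1% to practically all. Huwe1-002 held 55.8% to 96.2% of Huwe1 in Fmr1-KO libraries and up to 94.9% in WT libraries, being listed at 0.0% in WT replicate 3. Huwe1-001 held 0.00243% to 92.7% over the libraries, and it took most of what Huwe1-002 left in 3 Fmr1-KO and 6 WT libraries, other transcripts doing so in the remaining libraries. Nedd4l-201 held 12.1% to 84.1% in Fmr1-KO and 0.241% to 70.0% in WT, and Itch-001 held from a listed 0.0% (replicate 1) to practically all (replicate 8) in Fmr1-KO and 26.0% to 95.1% in WT. The ranges overlap between genotypes in each of these 4 genes. Transcript-level values of these genes depend on how reads common to both transcripts were assigned and are uncertain for that reason, whereas the gene totals of counts do not depend on it. The summed TPM of a gene does depend on it where its transcripts differ in length. Huwe1 had 607.0 CPM and 269.1 TPM in Fmr1-KO replicate 6, against 599.0 CPM and 103.9 TPM in Fmr1-KO replicate 3. Ube3a-001 held 67.2% ± 5.1 of Ube3a in Fmr1-KO and 62.2% ± 8.24 in WT (SD, n = 8 each), and transcripts annotated with a retained intron held 13.9% ± 2.17 in Fmr1-KO and 12.9% ± 4.81 in WT. Ube3a-003 and the retained-intron transcript Ube3a-004 had log2 fold changes of 0.15 (SE 0.49) and 0.56 (SE 0.55). Herc3-001 held 86.4% of the counts of Herc3, Ube3b-001 held 83.2% of those of Ube3b, and their log2 fold changes were 0.19 (SE 0.12) and 0.11 (SE 0.18).

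Whether the mix of transcripts differed between genotypes was tested in the 7 genes other than Arel1 that kept at least a pair of transcripts. None passed in the diffSpliceDGE test of edgeR, which called 2 of 3467 genes (0.0577%), and 0 of the 7 had an unadjusted p below 0.05, beside 3.06% of the genes. The smallest unadjusted p was 0.0659, for Herc1, with an adjusted p of 0.999.

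**Figure D5:**
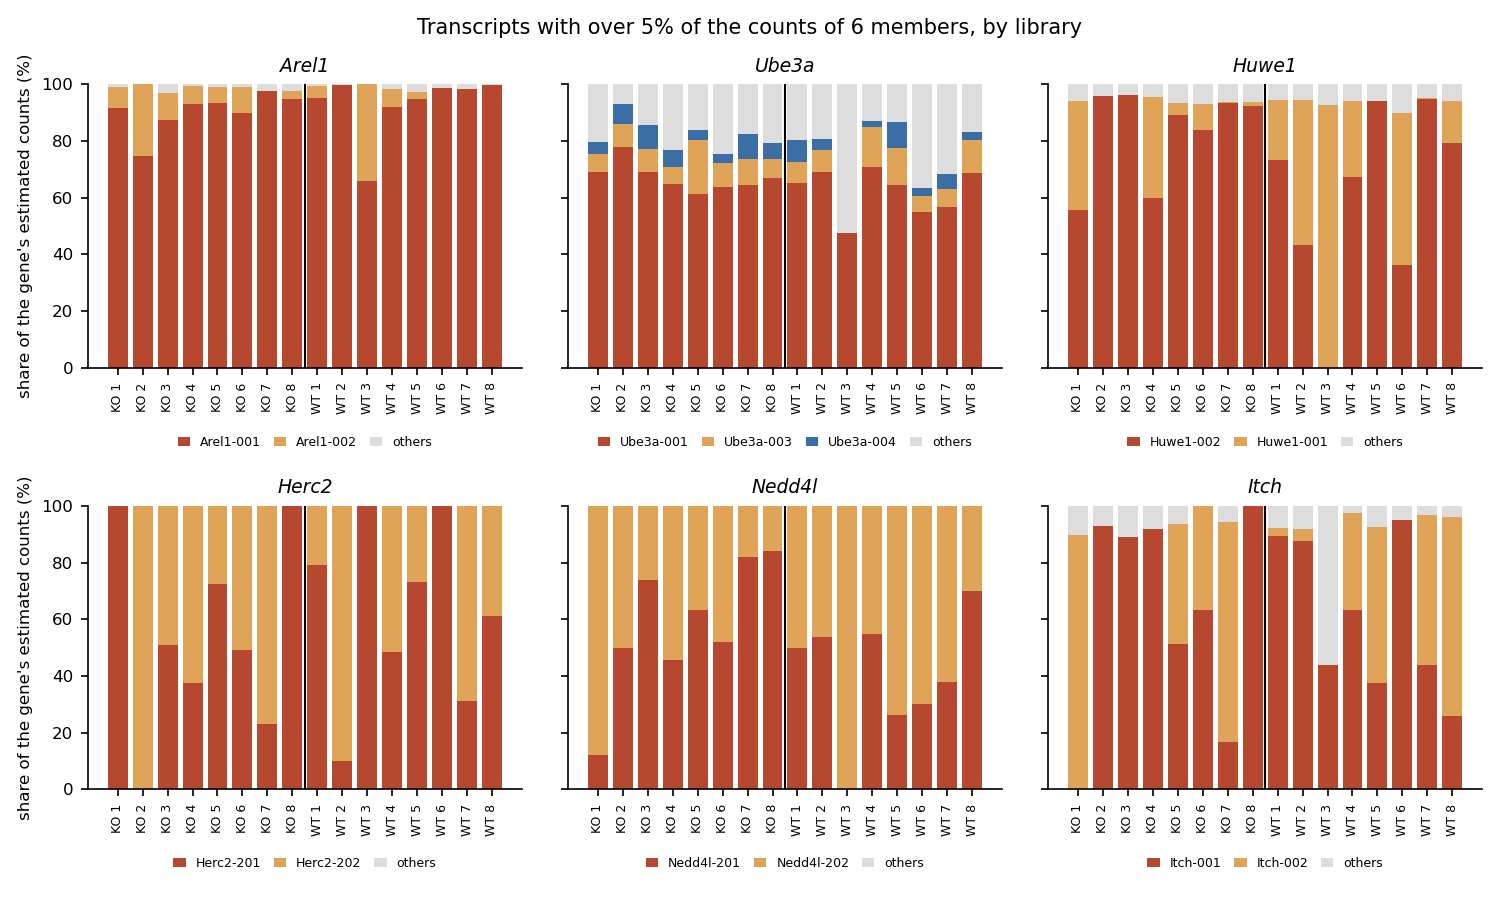
Share of each gene's estimated counts (percent, vertical axis) taken by its transcripts with over 5% of the total, in each library, for 6 of the ligases; Fmr1-KO libraries are left of the vertical line and WT libraries right of it, and grey is all other transcripts. Arel1-001 dominates in every library (66.1% to 99.8%), whereas the division between Herc2-201 and Herc2-202 varies widely within both genotypes (Herc2-201 has 23.0% in KO 7 and 72.6% in KO 5, and 10.1% in WT 2 and 79.3% in WT 1).

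Other parts of the ubiquitin system gave no gene past the threshold in edgeR with Benjamini-Hochberg adjustment. Of 6 genes for ubiquitin and its activation, 2 had a positive and 4 a negative log2 fold change with a median of -0.11, and the activating enzyme Uba1 had 0.16 (SE 0.09) and the polyubiquitin gene Ubb -0.09 (SE 0.11). Without WT replicates 3 and 6, Uba1 had 0.07 and Ubb -0.12. The 7 tested E2 enzymes that serve HECT ligases had 3 positive and 4 negative values with a median of -0.09, with -0.18 (SE 0.12) for Ube2l3, -0.19 (SE 0.18) for Ube2e1 and 0.12 (SE 0.13) for Ube2e2. Of 7 tested adaptors and inhibitors of the Nedd4 branch, 5 were positive and 2 negative with a median of 0.03. The arrestin-like adaptor Arrdc3 averaged 29.2 ± 5.53 CPM in Fmr1-KO, against 18.8 ± 3.85 CPM in WT (SD, n = 8 each), a log2 fold change of 0.60 with SE 0.18 (edgeR adjusted p = 0.515). Arrdc4 had -0.28 (SE 0.26) and Ndfip2, which recruits and activates Nedd4 ligases at membranes, -0.07 (SE 0.12).

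Genes of reported protein substrates had 14 positive and 9 negative log2 fold changes of 23 tested, with a median of 0.08. Those with the smallest p were Tsc2, the brake on mTOR signalling and a Herc1 substrate, with 0.25 (SE 0.11, adjusted p = 0.617 in edgeR), the sodium channel gene Scn2a1 with 0.31 (SE 0.15) and Txnip, an arrestin-like Itch substrate, with -0.81 (SE 0.39). Without WT replicates 3 and 6, Tsc2 had 0.14 and Scn2a1 0.23. Txnip had -1.27 without Fmr1-KO replicate 1 and -0.63 without WT replicate 3. The inhibitors of apoptosis and caspases, the pathway in which Arel1 acts, had 5 positive and 1 negative value of 6 tested, with a median of 0.07, and the apoptosome genes Casp9, Apaf1 and Cycs had 0.27 (SE 0.20), 0.30 (SE 0.31) and -0.20 (SE 0.21). Without WT replicates 3 and 6, Casp9 had 0.11, Apaf1 0.52 and Cycs -0.23. Neighbours of Ube3a and Herc2 in and around the imprinted region of chromosome 7 had 8 positive and 4 negative values of 12 tested with a median of 0.14. Nipa1, a magnesium transporter gene, had 0.41 (SE 0.17) and Snhg14 0.19 (SE 0.13). Of 38 other ubiquitin ligases of neurons tested, 26 were positive and 12 negative with a median of 0.12, and the synaptic ligase Trim9, the Notch pathway ligase Mib1 and Cbl had 0.20 (SE 0.08), 0.26 (SE 0.11) and 0.41 (SE 0.17).

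The genes most like Arel1 over the 16 libraries, by Pearson correlation of log2 CPM, were Slc8a2, a sodium-calcium exchanger of neurons (0.824), Apc2 (0.80), the phosphatase subunit gene Ppp1cb (0.798), the autophagy gene Atg16l1 (0.79) and Hspa12a (0.775). Part of this likeness is the genotype difference that chose Arel1. For deviations from the genotype means the correlations were 0.507 for Slc8a2, 0.454 for Apc2, 0.521 for Ppp1cb, 0.549 for Atg16l1 and 0.573 for Hspa12a. The closest of them, Slc8a2, averaged 680.2 ± 55.4 CPM in Fmr1-KO, against 572.7 ± 35.8 CPM in WT, and Apc2 averaged 275.0 ± 34.6 CPM in Fmr1-KO, against 206.4 ± 30.5 CPM in WT (SD, n = 8 each).

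Several of the ligases, Herc2 and Huwe1 among them, had lower means in WT mice labelled B than in WT mice labelled D. Herc2 averaged 569.0 ± 140.2 CPM in Fmr1-KO mice labelled B and 423.2 ± 45.1 CPM in WT mice labelled B, but 548.1 ± 70.8 CPM in Fmr1-KO mice labelled D and 548.5 ± 61.2 CPM in WT mice labelled D (SD, n = 4 each). Huwe1 averaged 502.4 ± 116.9 CPM in Fmr1-KO, against 398.7 ± 61.2 CPM in WT for B, and 509.2 ± 67.5 CPM in Fmr1-KO, against 496.0 ± 56.1 CPM in WT for D (SD, n = 4 each). In WT, Herc1 averaged 370.0 ± 33.0 CPM for B and 481.3 ± 86.3 CPM for D, and Ube3a 150.5 ± 26.6 and 190.4 ± 32.3 CPM. Herc3 had 206.0 ± 27.5 and 265.8 ± 27.6 CPM and Nedd4 315.2 ± 14.3 and 371.2 ± 27.7 CPM (SD, n = 4 each). What share of all genes differs as much between the letters was not counted. In Fmr1-KO the means for B and D were 508.5 and 520.0 CPM for Herc1 and 189.0 and 195.7 CPM for Ube3a. They were 262.3 and 280.7 CPM for Herc3 and 383.7 and 395.1 CPM for Nedd4. Itch had a lower mean for B in both genotypes. It averaged 61.9 ± 6.58 CPM for B and 72.4 ± 1.65 CPM for D in Fmr1-KO, and 53.4 ± 23.1 and 62.9 ± 11.6 CPM in WT (SD, n = 4 each). The WT mice labelled B are replicates 1, 3, 6 and 8, which are both shallow libraries and both WT libraries that were low for long transcripts, so in WT the letter cannot be told apart from these traits. What the letters stand for is not given in the labels, and whether the genotype difference depends on the letter was not tested. With the letter as a covariate the log2 fold change was 0.21 for Herc2 and 0.19 for Huwe1.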

How the data were processed

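CA1 libraries were run on a HiSeq instrument, per the labels. Among tools, kallisto, cutadapt, FastQC and DESeq2 appear in the submitters' processing notes, while their versions, the build and the index were not given in the sources used here. Each deposited table gives estimated counts per transcript, which the authors' quantification can leave fractional, and TPM, which the authors scaled within each library. Estimated counts were summed per gene symbol, rounded and tested with edgeR 4.0.16 in R 4.3.3 (quasi-likelihood test, TMM, filterByExpr with a minimum count of 10, all 16 libraries, no covariate), with Benjamini-Hochberg adjustment over all 11515 genes or 16772 transcripts and a threshold of 0.05. Log2 fold changes are Fmr1-KO over WT, and CPM are TMM-normalised. Standard errors are the log2 fold change divided by the square root of F. Transcript mixes were tested with diffSpliceDGE. Correlations use log2 CPM with a prior count of 2. Positions are from GENCODE M21 on GRCm38, joined by gene identifier. The steps were tested on simulated data. Alternatives used DESeq2 1.42.0, limma 3.58.1, other scalings and filters, log2(TPM + 1) and log2(TPM + 0.1), a letter covariate and the omission of libraries. The omissions given for marker lists and for genes other than the 10 ligases were chosen after seeing the data. The ligases, lists and tests were chosen with earlier results of these data known. Named genes are the 10 ligases, their filtered transcripts with a share over 5% or an unadjusted p below 0.05, Fmr1, other HECT ligases with an unadjusted p below 0.05 or among the 2 highest TPM, up to 3 genes with the smallest p in each other pathway list, and the 5 genes most correlated with Arel1. Some genes that this rule names are not reported here. Herc1-007 was named for its p after the values were seen. Replicate numbers follow accession order and pair nothing.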

Additional observations from a re-analysis of the deposited data

Results flagged for a closer look

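In 20 groups of 8 libraries (10 genes in 2 genotypes), 1 library lay far from the rest of its group by Dixon's criterion, about the number that chance gives at 1 in 20. It was Itch in WT replicate 3, with 19.2 CPM against 52.7 CPM in the nearest and 76.1 CPM in the highest WT library. The value rests on 16 counts, with an exact Poisson 95% interval of 9.15 to 26.0 counts, and its upper bound of 31.2 CPM lies below the nearest library. This library also had the highest summed markers of astrocytes (5374.2 CPM), microglia (500.7 CPM) and endothelium and pericytes (438.2 CPM), whose part in the value was not tested.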

How the results depend on the processing

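Of the 252 log2 fold changes of the 9 ligases other than Arel1 over 28 alternatives, 241 kept their sign and the 11 that turned all belonged to Ube3b; 250 had an adjusted p, of which 0 passed the threshold. Ube3b had -0.01 with DESeq2, with or without its independent filtering, -0.00089 with DESeq2 size factors in edgeR, -0.05 without WT replicates 3 and 6 and -0.05 with long genes as covariate, and -0.05 to 0.06 over single omissions. Arel1 kept its sign (0.34 to 0.47) and passed with DESeq2 (adjusted p = 0.00462, or 0.00694 without independent filtering) and limma-voom with quality weights (adjusted p = 0.0102). Its adjusted p ranged from 0.00462 to 0.768 over all alternatives, and the cause was not tested. Genes past the threshold numbered 2 in edgeR, 8 with DESeq2 (which left 9599 genes without an adjusted p), 6 without its filtering, 5 without the low-count filter, 7 with limma-voom, 0 with either TPM pseudocount (902 and 736 at unadjusted p below 0.05) and 2 to 3 over single omissions. Transcripts past it numbered 1, 15 with DESeq2 (which left 15608 transcripts without an adjusted p), 2 without its filtering and 1 to 2 over omissions. Genes with a changed mix numbered 2, 5 without WT replicates 3 and 6, and 1 to 3 over omissions. Herc2-201 turned from -0.01 to 0.06 with library totals, 0.05 without the filter, 0.24 without WT replicates 3 and 6, and -0.24 to 0.19 over omissions. Itch-002 turned from 0.08 to -0.22 with the letter covariate and -0.29 without WT replicates 3 and 6, and was -0.38 to 0.42 over omissions. Ube3a-003 was -0.13 and Ube3b-001 -0.0026 without WT replicates 3 and 6, and -0.04 to 0.37 and 0.02 to 0.18 over omissions. No paired analysis was possible because the animal numbers of the genotypes do not overlap. TPM moved the median gene by 0.55 or 0.62, so values on that scale were taken relative to it. Depth limits Itch and Ube3b most.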
